A study of Homo sapiens with 8 samples.

Results

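The genes described here are those that build cholesterol and fatty acids and those that sense and carry sterols, in human macrophages exposed to epirubicin and LPS. Of the 33 genes chosen by name, 31 had a probe set named for them in the platform table, 1 probe set each, among 17687 named genes in all, and FDFT1 and FADS1 are not reported here. All cells were THP-1, a line from a human monocytic leukaemia, and every culture, controls included, was first turned into macrophage-like cells with PMA (100 ng/mL). The series holds 8 Clariom S HT arrays with 2 in each of 4 conditions, which are untreated, LPS (100 ng/mL for 3 h), epirubicin (0.25 µg/mL for 24 h), and epirubicin with LPS. In the last of these both were given, with LPS added after the epirubicin treatment. Epirubicin is an anthracycline that blocks topoisomerase II, and LPS is the bacterial ligand of TLR4. No source tells if the duplicates of a condition were grown as separate cultures, and p-values therefore rest on a spread between arrays that may be technical only.

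Cells make cholesterol from acetyl-CoA through mevalonate, squalene and lanosterol, and make fatty acids from the same acetyl-CoA through malonyl-CoA. Both routes are driven by the SREBP transcription factors, which are made as membrane proteins of the endoplasmic reticulum. SCAP carries SREBP to the Golgi for cleavage when sterols are low, and INSIG proteins hold SCAP back when sterols are high. SREBP-2 mainly drives sterol genes and SREBP-1 mainly drives fatty acid genes, and both act on promoters together with the factor NF-Y. In macrophages, sterol and fatty acid synthesis respond to TLR4 ligands and supply membrane lipids and signalling lipids.

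Values are the deposited log2 expression values, and array medians over all probe sets lay between 5.75 and 5.84 on this scale. Duplicates correlated at 0.985 to 0.987 over probe sets (a description, as genes of an array are no replicates). The log2 mean of 4 LPS-induced genes (IL1B, IL6, CXCL8 and CCL20) lay between 5.34 and 6.0 on arrays without LPS and between 12.96 and 14.09 on arrays with it. The log2 mean of 12 macrophage markers lay between 11.86 and 12.2 on every array, with 9 or 10 of the 12 above the array median in each condition and MRC1 and MARCO below it in every condition. Lymphocyte, fibroblast and epithelial lists had 1 or 2 genes above it. A list of 5 genes of undifferentiated THP-1 cells, 4 of them above the array median in each condition, had log2 means of 9.48 to 9.67 on untreated, 9.87 on LPS, 9.35 to 9.63 on epirubicin and 9.09 to 9.23 on epirubicin with LPS arrays. Its genes moved apart. LPS without epirubicin raised CTSG by 2.42 and lowered MYB by 2.30, and with epirubicin lowered MYB by 1.42. Epirubicin lowered MYB by 1.34 without LPS and CTSG by 1.75 with it, while PRTN3, AZU1 and MPO did not pass in any of these comparisons. The part of these genes in the results below was not tested. In bulk samples, fewer cells of a kind and less RNA per cell cannot be told apart. A gene rose or fell where it passed the threshold used in the study, which is 2-fold or more with p at most 0.01 before adjustment, here from limma. Beside it stands the Benjamini-Hochberg adjusted p over all 21448 probe sets, and SE is the standard error of a log2 fold change (n = 2 arrays per condition throughout).

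**Figure D1:**
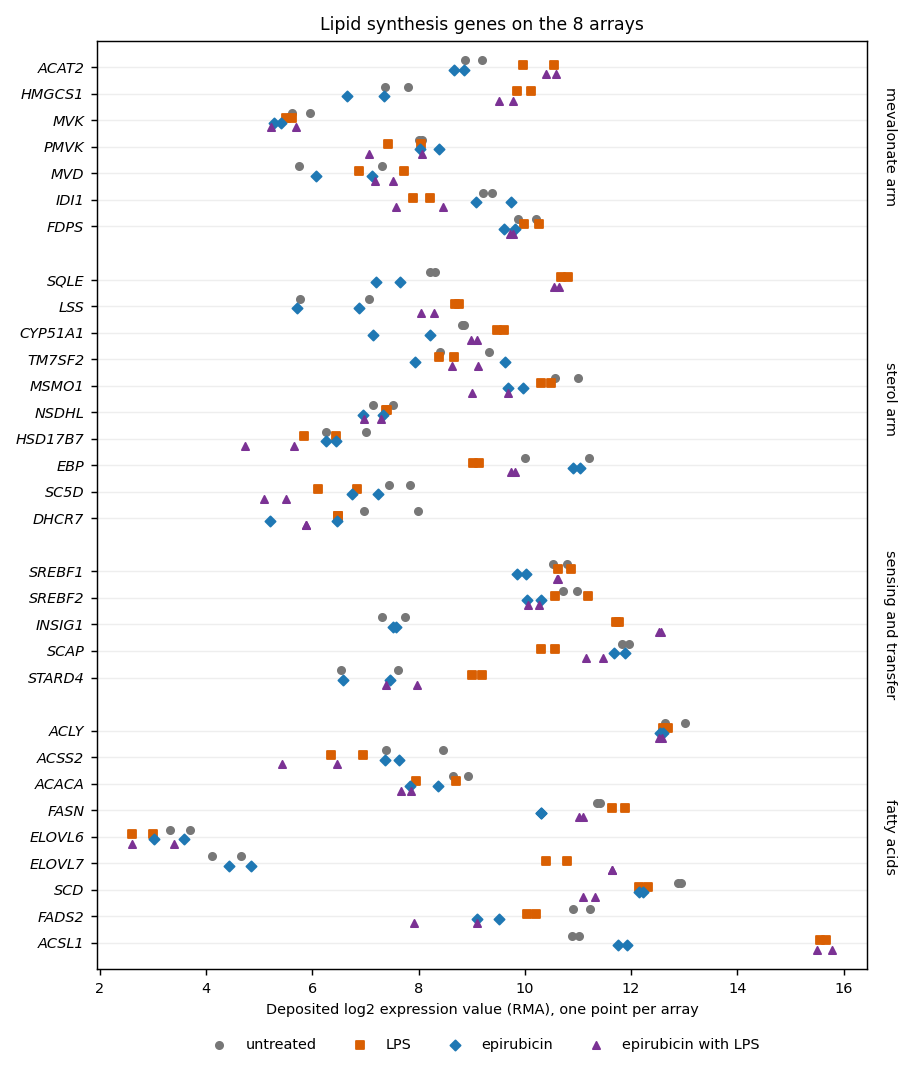
Deposited log2 expression value of each of the 31 measured genes on each of the 8 arrays, with 1 point per array, grouped by role and coloured by condition. INSIG1, SQLE, HMGCS1, ELOVL7 and ACSL1 separate by LPS, whereas FADS2, SCD and FASN are lower with epirubicin both without and with LPS.

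Without epirubicin, LPS raised some genes of the cholesterol pathway and lowered fewer. Of the 31 genes, 8 rose and 4 fell, a share of 38.7% where 11.7% of all probe sets passed the threshold (5.4% higher and 6.28% lower). Among 13814 probe sets with a condition mean of at least 5 the share was 17.7%, and 30 of the 31 genes are among them. The genes and lists were chosen with earlier results of these data known, so that their shares here and below describe them and test nothing. The risers were INSIG1, the early steps ACAT2 and HMGCS1, the enzymes SQLE and LSS that turn squalene into lanosterol, the sterol carrier STARD4, and ELOVL7 and ACSL1 of fatty acid metabolism. IDI1, EBP and SC5D of the pathway's middle and end and the SREBP escort SCAP fell. Of these, IDI1 and SC5D had adjusted p-values above 0.05 (0.0607 and 0.0611 from limma). With 1 array omitted, log2 fold changes ranged from −1.40 to −1.08 for IDI1 and from −2.13 to −0.91 for EBP. They ranged from −1.54 to −0.81 for SC5D and from −1.59 to −1.32 for SCAP. Over the 31 genes the median log2 fold change was −0.17, against −0.05 over all probe sets, and 15 of them had a positive value.

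INSIG1, which retains the SREBP escort protein in the endoplasmic reticulum, had log2 values of 7.31 and 7.75 on the untreated arrays and 11.72 and 11.76 on the LPS arrays. With epirubicin it had 7.53 and 7.57, and with epirubicin and LPS 12.56 and 12.52. All 4 arrays with LPS lay above all 4 without it, and the arrays with both agents were the highest. The LPS log2 fold change was 4.21 without epirubicin (SE 0.24, adjusted p = 2.1e-05 from limma) and 4.99 with it (SE 0.24, adjusted p = 1.1e-05).

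HMGCS1, which condenses acetoacetyl-CoA with acetyl-CoA to HMG-CoA, had log2 values of 7.37 and 7.79 in untreated cells and 10.12 and 9.85 with LPS. After epirubicin the values were 6.66 and 7.34 without LPS and 9.52 and 9.77 with it. The LPS log2 fold change was 2.41 without epirubicin (SE 0.31, adjusted p = 0.0016 from limma) and 2.65 with it (adjusted p = 9.4e-04). SQLE, which oxidizes squalene, had log2 values of 8.31 and 8.22 in untreated cells and 10.82 and 10.68 with LPS. With epirubicin it had 7.20 and 7.65, and with both agents 10.65 and 10.55. For SQLE the log2 fold change was 2.48 without epirubicin (SE 0.25, adjusted p = 4.0e-04) and 3.17 with it (adjusted p = 1.1e-04). In both genes every array with LPS was above every array without it. ACAT2, the cytosolic thiolase that makes acetoacetyl-CoA, rose by 1.22 without epirubicin (SE 0.28, adjusted p = 0.0256) and by 1.73 with it (adjusted p = 0.0050). LSS, which folds oxidosqualene into lanosterol, rose by 2.30 (SE 0.49, adjusted p = 0.0192) and by 1.87 (adjusted p = 0.043). Its duplicates without LPS lay apart, at 5.77 and 7.07 in untreated cells and at 5.70 and 6.89 with epirubicin.

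Other enzymes of the same pathway fell or did not pass without epirubicin. IDI1, the isomerase that makes dimethylallyl diphosphate, had log2 values of 9.38 and 9.22 in untreated cells, 7.90 and 8.22 with LPS, 9.08 and 9.73 with epirubicin, and 7.58 and 8.45 with both. It fell in both LPS comparisons, with log2 fold changes of −1.24 without epirubicin (SE 0.35, adjusted p = 0.0607 from limma) and −1.39 with it (adjusted p = 0.0396). SC5D, a desaturase of the last steps, had −1.17 (SE 0.34, adjusted p = 0.0611) and −1.69 (adjusted p = 0.0139), and fell in both, with values below the array median (5.09 and 5.51) on the arrays with both agents. EBP, a sterol isomerase, fell without epirubicin by 1.52 (SE 0.37, adjusted p = 0.0349) and had −1.20 with it, short of the threshold (adjusted p = 0.079 from limma). CYP51A1, the lanosterol demethylase, had 0.71 without epirubicin and rose by 1.37 with it (SE 0.34, adjusted p = 0.0366). For the other 9 enzymes of the mevalonate and sterol arms (MVK, PMVK, MVD, FDPS, TM7SF2, MSMO1, NSDHL, HSD17B7 and DHCR7) neither LPS comparison passed the threshold. Of these, FDPS, which makes farnesyl diphosphate, and NSDHL, a sterol dehydrogenase, had LPS log2 fold changes between −0.02 and 0.08.

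SREBF2 and SREBF1, the genes of the SREBP factors themselves, had LPS log2 fold changes of 0.03 (SE 0.29) and 0.08 (SE 0.24) without epirubicin, and of −0.01 and 0.67 with it, and did not pass. SCAP had log2 values of 11.95 and 11.83 in untreated cells and 10.58 and 10.31 with LPS, and after epirubicin 11.68 and 11.88 without LPS and 11.16 and 11.47 with it. It fell under LPS without epirubicin, by 1.45 (SE 0.24, adjusted p = 0.0067 from limma), and had −0.47 with epirubicin. STARD4, which moves cholesterol between membranes, had log2 values of 6.55 and 7.61 in untreated cells and 9.19 and 9.01 with LPS, and after epirubicin 7.47 and 6.58 without LPS and 7.39 and 7.96 with it. Its LPS log2 fold change was 2.02 without epirubicin (SE 0.43, adjusted p = 0.0195) and 0.65 with epirubicin (adjusted p = 0.407), where arrays with and without LPS overlapped.

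ELOVL7, an elongase of long-chain fatty acids, had log2 values of 4.11 and 4.65 in untreated cells and 10.80 and 10.40 with LPS, and after epirubicin 4.84 and 4.44 without LPS and 11.64 and 11.64 with it. The LPS log2 fold change of 6.22 (SE 0.29, adjusted p = 7.5e-06 from limma) and that of 7.0 with epirubicin (adjusted p = 5.5e-06) start from values below the array median, so that their size is uncertain. ACSL1, which activates long-chain fatty acids with CoA, had log2 values of 10.89 and 11.02 in untreated cells and 15.56 and 15.66 with LPS, and after epirubicin 11.92 and 11.76 without LPS and 15.79 and 15.50 with it. It rose under LPS by 4.66 without epirubicin (SE 0.23, adjusted p = 1.2e-05) and by 3.80 with it (adjusted p = 3.2e-05). ACLY and the enzymes that make palmitate from acetyl-CoA did not pass. FASN, the fatty acid synthase, had 0.38 and 0.76, the second short only in size (adjusted p = 0.0673 from limma). ACLY, which makes cytosolic acetyl-CoA from citrate, had −0.17 and −0.01, and ACACA, the acetyl-CoA carboxylase, had −0.46 and −0.33. SCD, which makes oleate and palmitoleate, had LPS log2 fold changes of −0.68 and −0.98, the second just short of 2-fold (adjusted p = 0.0277). ACSS2, which makes acetyl-CoA from acetate, had −1.28 without epirubicin and fell by 1.55 with it (SE 0.46, adjusted p = 0.0662), where 1 of the arrays with both agents (5.43) lay below the array median. ELOVL6, the elongase of palmitate, lay below the array median on all 8 arrays, from 2.61 to 3.70.

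**Figure D2:**
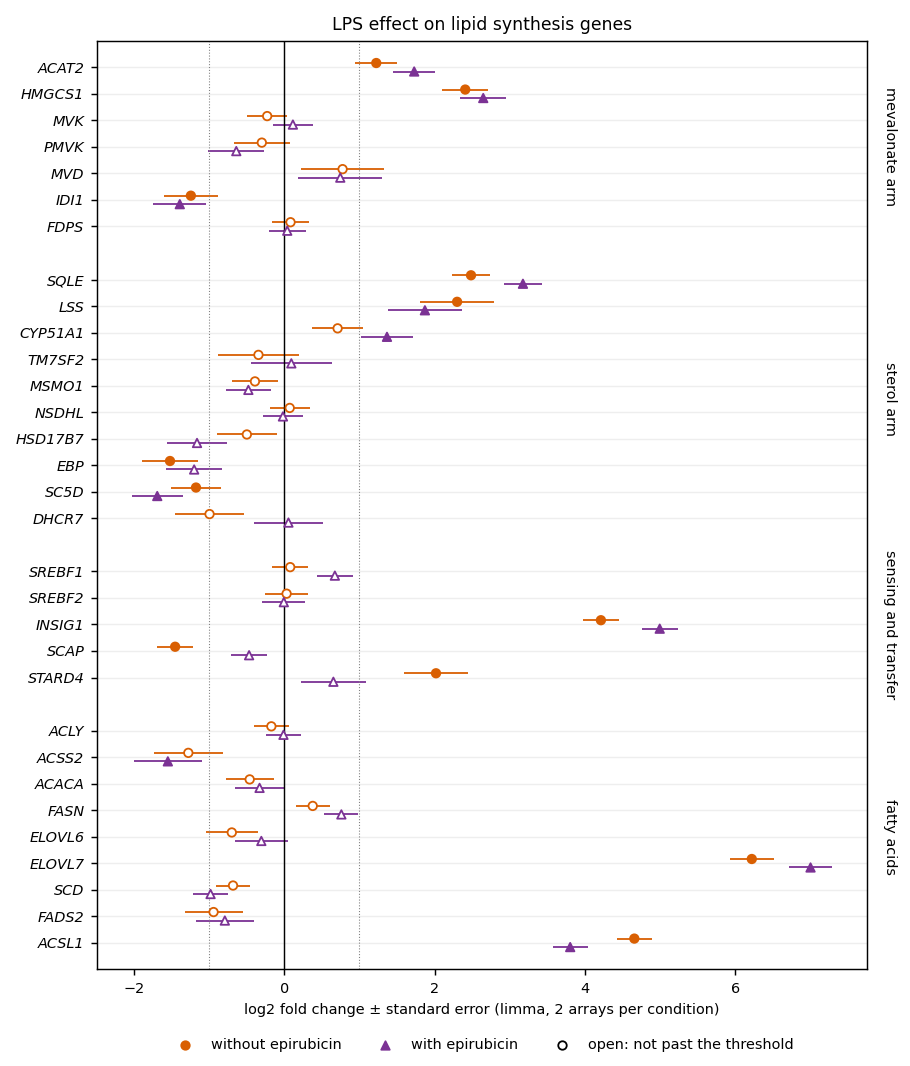
LPS log2 fold change of each gene without epirubicin (circles) and with it (triangles), with its limma standard error. Filled symbols passed the threshold, dotted lines mark 2-fold, and ELOVL7, INSIG1 and ACSL1 lie farthest to the right in both comparisons.

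With epirubicin, LPS raised 8 of the 31 genes and lowered 3, a share of 35.5% where 12.1% of all probe sets passed (5.46% higher and 6.59% lower) and 18.2% of those with a condition mean of at least 5. At an adjusted p of at most 0.05 from limma, whatever the fold change, 8 genes were higher and 2 lower without epirubicin, and 8 higher and 3 lower with it, where 11.4% and 11.8% of all probe sets passed. In leave-one-out fits INSIG1, HMGCS1, SQLE, ELOVL7 and ACSL1 passed in both LPS comparisons whichever array was omitted, and so did SCAP without epirubicin and ACAT2 and SC5D with it. Without epirubicin, LSS (1.65) and STARD4 (1.48) did not pass without untreated duplicate 1, ACAT2 not without untreated duplicate 2 (1.06) or LPS duplicate 1 (0.93), EBP not without untreated duplicate 2 (−0.91), LPS duplicate 1 (−1.58) or LPS duplicate 2 (−1.46), and IDI1 not without any of the 4 arrays compared (−1.40 to −1.08). SC5D did not pass there without untreated duplicate 1 (−1.37) or 2 (−0.98), LPS duplicate 1 (−0.81) or either array with both agents (−1.17), while ACSS2 passed without untreated duplicate 1 (−1.81). With epirubicin, LSS and CYP51A1 did not pass without epirubicin duplicate 1 (1.28 and 0.83) or either array with both agents (1.75 and 1.42 without duplicate 1, 1.99 and 1.31 without duplicate 2), nor did IDI1 without epirubicin duplicate 2 (−1.06) or epirubicin with LPS duplicate 1 (−0.95). ACSS2 passed there only without either untreated array or epirubicin with LPS duplicate 1, and had −1.03 without epirubicin with LPS duplicate 2. EBP passed without either untreated array (−1.20), HSD17B7 (−1.63) and FADS2 (−1.38, with −0.79 in the full fit) without epirubicin with LPS duplicate 2, and SCD without epirubicin duplicate 2 (−1.02) or epirubicin with LPS duplicate 1 (−1.09).

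Promoter windows, which run from 250 bases before to 50 after a gene's start, are shown for INSIG1, HMGCS1 and ACSL1, which LPS raised, for MSMO1, which epirubicin lowered under LPS, and for SREBF2, the SREBP gene whose window holds a sterol regulatory element motif. The sequences are those of RefSeq on GRCh38.p14, 28 of the 31 genes matched, and several genes have more than 1 window. Capitals mark CACCCCAC and TCACNCCAC (the core of the sterol regulatory element, which overlap each other), CACGTG (an E-box) and CCAAT (the NF-Y box), each searched on both strands.
INSIG1 (chr7:155297628-155297927, plus strand): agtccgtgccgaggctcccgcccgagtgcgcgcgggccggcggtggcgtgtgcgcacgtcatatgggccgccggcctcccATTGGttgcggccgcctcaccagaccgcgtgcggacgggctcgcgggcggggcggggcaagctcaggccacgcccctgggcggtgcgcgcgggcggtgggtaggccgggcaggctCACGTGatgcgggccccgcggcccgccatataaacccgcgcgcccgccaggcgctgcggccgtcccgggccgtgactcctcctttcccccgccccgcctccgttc
HMGCS1 (chr5:43313363-43313662, minus strand): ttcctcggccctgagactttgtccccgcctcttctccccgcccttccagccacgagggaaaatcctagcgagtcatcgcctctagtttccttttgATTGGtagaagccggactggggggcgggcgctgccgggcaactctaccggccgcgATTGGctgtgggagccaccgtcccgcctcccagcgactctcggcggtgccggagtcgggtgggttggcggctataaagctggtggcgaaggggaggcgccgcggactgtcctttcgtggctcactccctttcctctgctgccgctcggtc
ACSL1 (chr4:184805504-184805803, minus strand): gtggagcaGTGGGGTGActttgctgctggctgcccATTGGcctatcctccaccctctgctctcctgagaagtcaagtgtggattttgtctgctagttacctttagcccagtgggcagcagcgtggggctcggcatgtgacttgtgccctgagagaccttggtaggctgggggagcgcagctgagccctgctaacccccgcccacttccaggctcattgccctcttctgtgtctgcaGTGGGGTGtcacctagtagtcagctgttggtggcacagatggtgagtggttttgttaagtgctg
MSMO1 (chr4:165327419-165327718, plus strand): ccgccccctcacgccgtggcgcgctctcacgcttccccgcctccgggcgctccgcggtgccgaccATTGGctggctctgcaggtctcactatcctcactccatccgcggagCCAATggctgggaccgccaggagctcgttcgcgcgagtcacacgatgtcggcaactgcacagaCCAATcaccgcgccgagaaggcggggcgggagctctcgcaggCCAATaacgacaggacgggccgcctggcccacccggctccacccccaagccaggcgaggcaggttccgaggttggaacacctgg
SREBF2 (chr22:41832855-41833154, plus strand): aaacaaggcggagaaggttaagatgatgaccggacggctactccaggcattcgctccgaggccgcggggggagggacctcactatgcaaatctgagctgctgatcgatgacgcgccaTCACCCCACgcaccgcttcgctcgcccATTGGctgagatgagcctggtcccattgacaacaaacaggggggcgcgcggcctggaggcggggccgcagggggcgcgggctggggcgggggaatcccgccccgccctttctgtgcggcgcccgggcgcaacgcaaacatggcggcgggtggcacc
CCAAT or its reverse was in 26 of 42 windows of these genes (61.9%), against 34.6% of all 35116 windows. The windows with it belong to 22 of the 28 genes, a count for which no share over all genes is given. Genes with more windows have more room for a match, and overlapping windows count the same bases again. MSMO1 held 4 copies, and the HMGCS1 window shown held 2. HMGCS1 and ACSL1 have further windows that held none of the motifs searched, so that the windows shown for them are those with matches. CACGTG was in 5 windows (11.9%, against 7.26% of all), of INSIG1, LSS, SCAP and SC5D, the last with overlapping windows. CACCCCAC was in 2 windows (4.76%, against 2.79%) and TCACNCCAC in the same 2 (4.76%, against 1.13%), those of SREBF2 and of 1 of the 5 windows of ACSL1. A match is a run of letters and not a bound site, and CCAAT was held by genes that rose under LPS (INSIG1, HMGCS1, LSS) and by genes that fell (IDI1, EBP, SC5D).

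**Figure D3:**
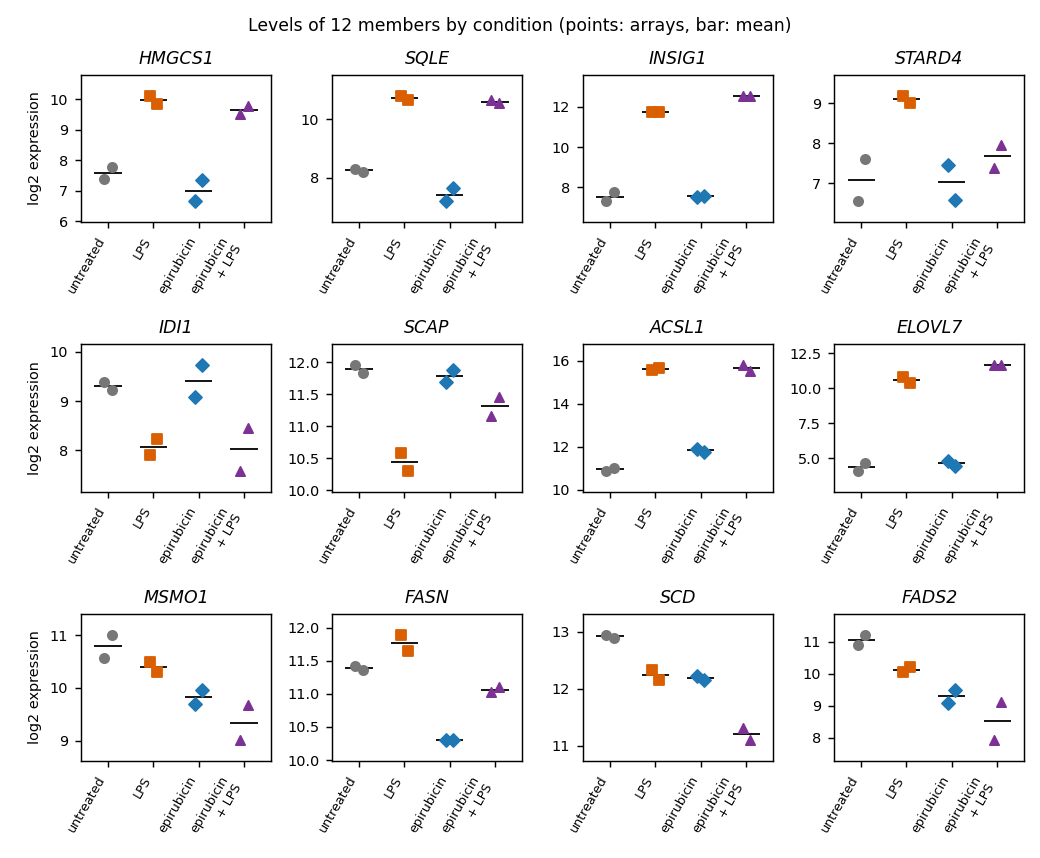
Log2 expression of 12 of the genes by condition, with 1 point per array and a bar at the mean of the 2 arrays (each panel has its own axis, which does not start at 0). HMGCS1, SQLE, INSIG1, ACSL1 and ELOVL7 separate by LPS, STARD4 is high on the LPS arrays only, and MSMO1, FASN, SCD and FADS2 are lower with epirubicin than without it in both LPS states.

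Epirubicin lowered genes of the sterol and fatty acid arms. Without LPS, 4 of the 31 genes fell (CYP51A1, DHCR7, FASN and FADS2) and none rose, a share of 12.9% where 2.26% of all probe sets passed (1.06% higher and 1.2% lower) and 3.1% of those with a condition mean of at least 5. With LPS, MSMO1, SC5D, SCD and FADS2 fell and ELOVL7 rose, a share of 16.1% where 2.66% of all probe sets passed (1.25% higher and 1.4% lower) and 3.71% of the brighter ones. The log2 fold change was negative for 24 of the 31 genes (77.4%) without LPS and for 22 (71.0%) with it, against 50.4% and 49.4% of all probe sets. The medians were −0.28 and −0.27, against 0.00 and 0.01. As the genes were chosen with earlier results of these data known, these shares and medians are descriptions only. At an adjusted p of at most 0.05, limma called 0 of the 31 genes in either comparison, where 0.014% and 0.103% of all probe sets passed, while 10 and 11 genes (32.3% and 35.5%) had an unadjusted p of at most 0.05, against 10.2% and 10.9% of all probe sets. When limma's prior variance was fitted robustly as a trend on the mean, 4 genes passed that adjusted level in each, where 1.41% and 1.92% of all probe sets did (302 and 412 in place of 3 and 22). Under the replicate block, quantile normalization, the filter on dim probe sets and every leave-one-out fit, 0 of the 31 passed it in both. Both comparisons use different arrays, but the model gives them the same estimate of spread for each gene.

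FADS2, the desaturase that starts the synthesis of polyunsaturated fatty acids, had log2 values of 10.90 and 11.22 in untreated cells and 9.10 and 9.51 with epirubicin. Under LPS it had 10.05 and 10.20 without epirubicin and 7.92 and 9.11 with it, so that arrays with epirubicin were lower in both states. It was the only gene of the 31 that fell in both comparisons, with log2 fold changes of −1.76 (SE 0.39, adjusted p = 0.208 from limma) and −1.61 (adjusted p = 0.192). FASN had log2 values of 11.42 and 11.36 in untreated cells, 10.30 and 10.31 with epirubicin, 11.89 and 11.65 with LPS, and 11.03 and 11.10 with both. It fell without LPS by 1.09 (SE 0.22, adjusted p = 0.208), and had −0.71 with LPS (adjusted p = 0.307), below 2-fold though the arrays did not overlap.

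SCD had log2 values of 12.95 and 12.89 in untreated cells, 12.23 and 12.15 with epirubicin, 12.33 and 12.14 with LPS, and 11.32 and 11.10 with both. The lowest values were those with both agents, and the log2 fold change with epirubicin was −0.73 without LPS and −1.03 with it (SE 0.23, adjusted p = 0.173 from limma), of which the second passed. ACACA had −0.69 and −0.56, ACLY −0.26 and −0.09, and ACSS2 −0.43 and −0.71, and did not pass. ELOVL7 had 0.26 without LPS, where its level lay below the array median, and rose by 1.04 with LPS (SE 0.29, adjusted p = 0.253). ACSL1 had 0.88 without LPS (adjusted p = 0.287 from limma, below 2-fold) and 0.03 with it.

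In the sterol arm, 9 of 10 genes had a negative log2 fold change without LPS and 8 of 10 with it, against 50.4% and 49.4% of all probe sets. Only 2 of the 10 passed the threshold in each, where 2.26% and 2.66% of all probe sets passed. The arms were also drawn with earlier results known, so that these counts are descriptions only. MSMO1, which removes methyl groups from sterol precursors, had log2 values of 10.57 and 11.01 in untreated cells, 9.69 and 9.96 with epirubicin, 10.49 and 10.31 with LPS, and 9.01 and 9.68 with both. Arrays with epirubicin were below those without it in both states, and the log2 fold changes were −0.96 (SE 0.30), short of 2-fold, and −1.05 (adjusted p = 0.270 from limma), which passed. DHCR7, which makes cholesterol from its last precursor, had log2 values of 6.96 and 7.98 in untreated cells and 5.20 and 6.46 with epirubicin, a fall of 1.65 (SE 0.45, adjusted p = 0.303), and −0.60 with LPS. The lower of these epirubicin values lies below the array median. CYP51A1 had 8.82 and 8.85 in untreated cells and 7.15 and 8.21 with epirubicin, and fell by 1.15 (SE 0.34, adjusted p = 0.328), with −0.49 under LPS. SC5D had −0.65 without LPS and fell by 1.17 with it (adjusted p = 0.270). SQLE had −0.84 without LPS (adjusted p = 0.326, below 2-fold) and −0.15 with it. EBP had 0.37 and 0.69 and was the only gene of this arm that was positive without LPS.

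In the mevalonate arm 0 of 7 genes passed in either epirubicin comparison, where 2.26% and 2.66% of all probe sets passed. Limma gave 0 of the 7 an unadjusted p of at most 0.05, against 10.2% and 10.9% of all probe sets. With 7 genes, these counts cannot set the arm apart from the background. HMGCS1 had −0.58 and −0.34 (SE 0.31), and IDI1 0.10 and −0.04 (SE 0.35). Among the sensing genes, SREBF2 had −0.67 without LPS and −0.71 with it (adjusted p = 0.470 and 0.422 from limma), and SREBF1 had −0.72 and −0.12 (adjusted p = 0.365 and 0.899). With LPS, INSIG1 had 0.80 (adjusted p = 0.287), SCAP 0.87 (adjusted p = 0.258) and STARD4 −1.42 (adjusted p = 0.286), each short of the threshold in p, in size or in both.

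**Figure D4:**
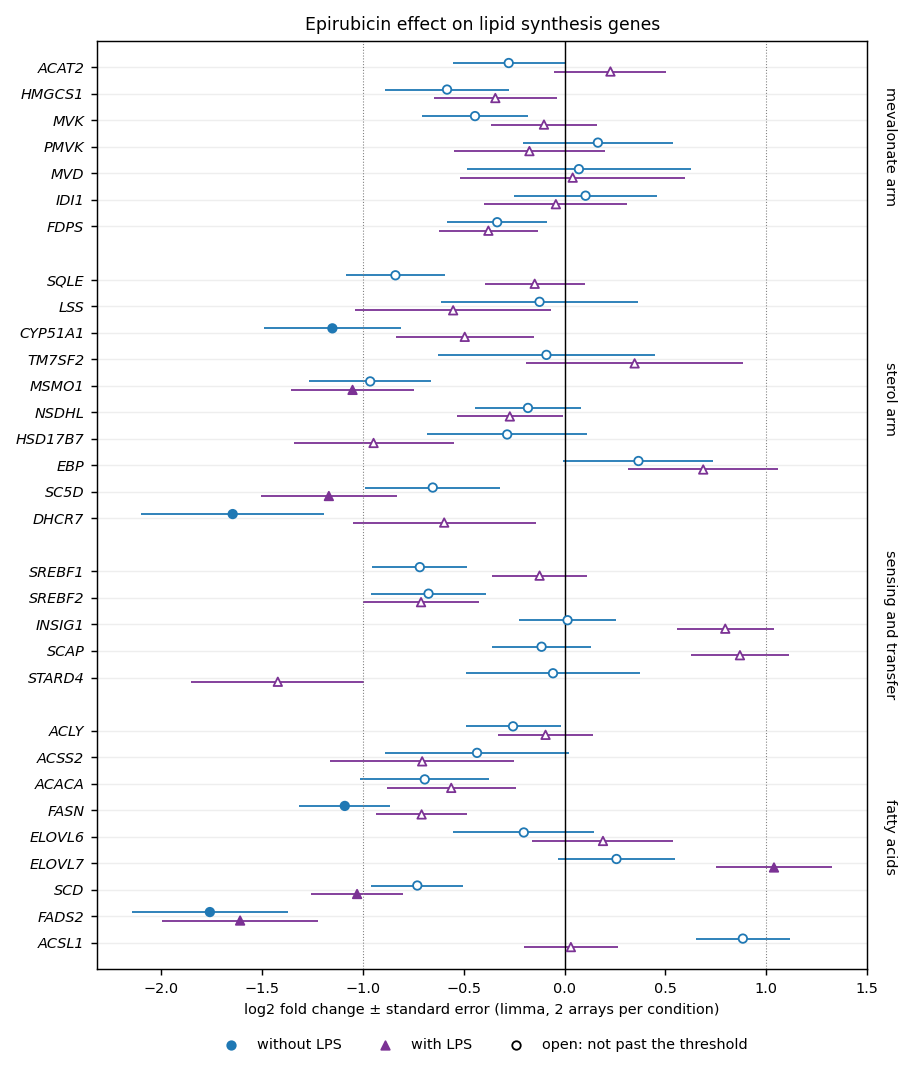
Epirubicin log2 fold change of each gene without LPS (circles) and with LPS (triangles), with its limma standard error. Filled symbols passed the threshold, dotted lines mark 2-fold, most values lie left of 0, and FADS2 is filled in both comparisons.

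**Figure D5:**
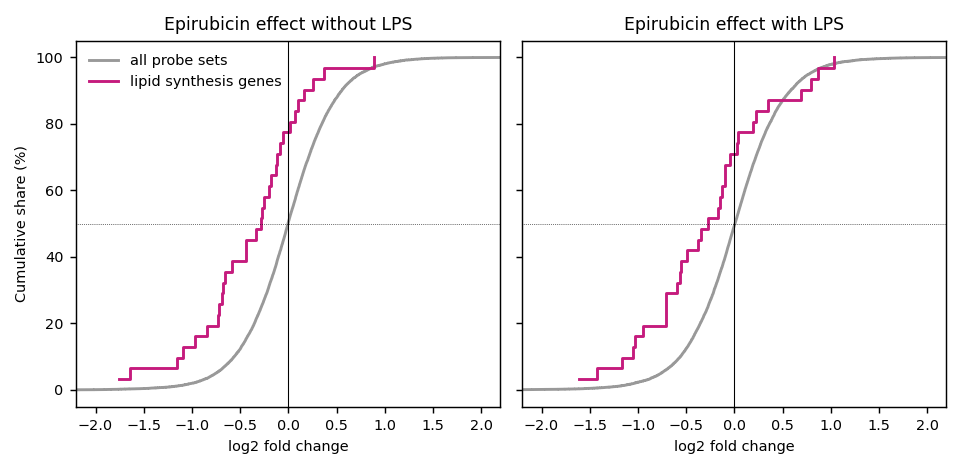
Cumulative share of epirubicin log2 fold changes for the 31 genes and for all 21448 probe sets, without LPS and with LPS (the horizontal axis is limited to −2.2 to 2.2). The line of the 31 genes crosses 50% at −0.28 and −0.27, and that of all probe sets at 0.00 and 0.01.

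In leave-one-out fits between 1 and 5 of the 31 genes passed in either epirubicin comparison, and FASN without LPS was the only call that passed whichever array was omitted. FADS2 did not pass without untreated duplicate 2 (−1.60) or epirubicin duplicate 1 (−1.55), nor under LPS without LPS duplicate 1 (−1.69), LPS duplicate 2 (−1.53) or epirubicin with LPS duplicate 1 (−1.02). CYP51A1 passed only without epirubicin duplicate 2 and had −0.62 without epirubicin duplicate 1. DHCR7 passed only without untreated duplicate 1 or epirubicin duplicate 2, and had −1.14 without untreated duplicate 2 and −1.02 without epirubicin duplicate 1. MSMO1 under LPS passed only without epirubicin with LPS duplicate 2 and had −0.71 without duplicate 1. SC5D under LPS had −0.80 without LPS duplicate 2, −0.96 and −1.38 without either array with both agents, and −1.17 without either untreated array, and did not pass in these fits. SCD did not pass without LPS duplicate 1 (−0.94) or epirubicin with LPS duplicate 2 (−0.92), nor ELOVL7 without LPS duplicate 2 (0.84) or either array with both agents (1.04). STARD4 under LPS passed without either untreated or either epirubicin array (−1.42), and SQLE without LPS passed without epirubicin duplicate 2 (−1.06). Averaged over both LPS states, which sets 4 arrays against 4, FADS2 fell by 1.68 (SE 0.27, adjusted p = 0.0508 from limma), DHCR7 by 1.12 (adjusted p = 0.182) and MSMO1 by 1.01 (adjusted p = 0.102), a share of 9.68% where 1.44% of all probe sets passed (0.657% higher and 0.783% lower) and 2.16% of the brighter ones. In this average limma gave 0 of the 31 genes an adjusted p of at most 0.05, where 0.457% of all probe sets passed that level. Under the replicate block and under quantile normalization 1 gene passed it (0.205% and 0.466% of all). With the filter on dim probe sets 3 genes passed it (1.27% of those kept), and with the mean-dependent robust prior 6 (4.15% of all). FASN had −0.90 and SCD −0.88, below 2-fold, with adjusted p-values of 0.0666 and 0.0708 in the main fit. DHCR7 did not pass there without untreated duplicate 2 (−0.87), epirubicin duplicate 1 (−0.81) or any array with LPS (−1.12), and MSMO1 not without untreated duplicate 2 (−0.90), LPS duplicate 1 (−0.96), epirubicin duplicate 1 (−0.94) or epirubicin with LPS duplicate 1 (−0.84). CYP51A1 passed without epirubicin duplicate 2 (−1.09), STARD4 without untreated duplicate 1 (−1.01), and SC5D without untreated, LPS or epirubicin duplicate 1 or epirubicin with LPS duplicate 2 (−1.09 to −1.01).

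Whether epirubicin changed the LPS response was asked with the difference of the LPS effects (with epirubicin minus without). It passed the threshold in 0 of the 31 genes, where 1.62% of all probe sets passed (0.727% higher, 0.891% lower, and 0.00466% at an adjusted p of at most 0.05), and limma gave 2 of them (6.45%) an unadjusted p of at most 0.05, against 7.3% of all probe sets, so that their number is no more than the background. SCAP had a difference of 0.98 (95% interval 0.19 to 1.78, adjusted p = 0.626 from limma), as its fall under LPS was the smaller one with epirubicin. ACSL1 had −0.85 (−1.61 to −0.09, adjusted p = 0.645). For STARD4 the difference was −1.36 (−2.76 to 0.03, adjusted p = 0.689), and for INSIG1 0.78 (−0.00 to 1.57, adjusted p = 0.685). The intervals of HMGCS1 (−0.75 to 1.23) and of FADS2 (−1.10 to 1.40) leave room for a difference of 2-fold or more.

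Of 59 further genes of these pathways, 47 had a probe set. LPS raised 4 and lowered 4 of them without epirubicin and raised 6 and lowered 6 with it. These shares of 17.0% and 25.5% stand beside 11.7% and 12.1% of all probe sets and 17.7% and 18.2% of the brighter ones, so that the first is close to the share of the brighter probe sets. ACSL5 and ACSL4, which activate fatty acids like ACSL1, rose without epirubicin by 3.13 (SE 0.29, adjusted p = 2.7e-04 from limma) and 2.49 (adjusted p = 3.7e-04), and with it by 3.23 and 1.36. ELOVL5, an elongase of polyunsaturated fatty acids, rose by 1.54 and 2.37. LBR, a sterol reductase that is also the lamin B receptor, fell by 1.62 and 1.88. INSIG2, the relative of INSIG1, fell by 1.88 and 1.15, against the rise of INSIG1. Its fall with epirubicin had an adjusted p above 0.05 from limma. HACD2, a dehydratase of fatty acid elongation, fell in both, by 1.22 and 1.24. With epirubicin, LPS also raised ME1, the malic enzyme that makes NADPH (1.71). Epirubicin without LPS lowered ME1 by 1.23 (adjusted p = 0.278) and CYB5A, the cytochrome b5 that serves desaturases, by 1.13 (adjusted p = 0.285), and raised ELOVL4 by 1.85, from levels below the array median (3 of 47, 6.38%, against 2.26% of all probe sets). With LPS, 0 of the 47 passed the epirubicin threshold, against 2.66% of all probe sets, and limma gave 5 (10.6%) an unadjusted p of at most 0.05, against 10.9% of all. The median epirubicin log2 fold change of the 47 was 0.10 without LPS and −0.03 with it.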

How the data were processed

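Expression was measured in THP-1 macrophages on 8 Clariom S HT arrays. The authors deposited 1 log2 value per probe set, made from CEL files in the Transcriptome Analysis Console. The methods name SST-RMA and the processing notes RMA, without a version. RMA puts all arrays on 1 scale, so that a shift shared by all genes cannot be seen, and a probe set near background understates a fold change. Of 24351 rows, 2903 control rows were left out and 21448 tested. Gene symbols came from the platform table, which names 17709 probe sets with 1 gene and none of the other 3739. Each gene described had 1 probe set.

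All 4 conditions entered 1 limma model (version 3.58.1, R 4.3.3) with 4 residual and 4.25 prior degrees of freedom. The code was tested on simulated data. Calls follow the threshold of the study, p at most 0.01 before adjustment and at least 2-fold. All 33 genes of the list were to be named, with up to 6 further pathway genes per comparison that passed, by smallest p. A further gene named for 1 LPS comparison has its value in the other given as well, so that more than 6 can appear there. Members and lists were chosen with earlier results of these data known. The number of arrays limits the precision. Alternatives were leave-one-out fits, the duplicate number as a block, a mean-dependent robust prior variance, repeated quantile normalization, a filter on dim probe sets, fits of only the groups compared, and an adjusted p of at most 0.05. Figures were drawn with Python 3.11.15 and matplotlib 3.10.9.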

Additional observations from a re-analysis of the deposited data

How the results depend on the processing

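Values were compared for genes with a limma p of at most 0.05 before adjustment in a comparison or a call in any alternative. This selection makes a turned direction unlikely. The block, the robust prior, the dim filter and the omission of an array outside a comparison also leave that comparison's log2 fold changes as they are. No alternative turned the direction of a single gene's log2 fold change. Of these values 731 stayed on their side of the threshold, 85 no longer passed it and 24 came to pass it. The difference of the LPS effects called 0 of the 31 genes in every alternative run. Without LPS, the number of genes that epirubicin changed was 4, and it was 2 in a fit of only the 4 arrays compared, 0 at an adjusted p of at most 0.05, and 1 to 5 in leave-one-out fits. With LPS it was 5, 0 at an adjusted p of at most 0.05, and 1 to 5 in leave-one-out fits. Averaged over LPS it was 3, and 1 to 5 in leave-one-out fits. The median epirubicin log2 fold change ranged, in leave-one-out fits, from −0.55 to −0.28 without LPS and from −0.41 to −0.21 with it. The median difference of the LPS effects ranged from −0.10 to 0.36 in these fits. The counts for LPS ranged from 8 to 12 in both comparisons.

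Same-numbered duplicates did not deviate together (correlations of −0.01 to 0.02 over 6 pairs of conditions). This cannot tell if same-numbered duplicates were grown or run together. With the duplicate number as a replicate block, LPS changed 12 genes without epirubicin and 11 with it, and epirubicin 3 without LPS and 4 with it. Of all 21448 probe sets, 2502 and 2588 passed in these LPS comparisons, and 483 and 573 in these epirubicin comparisons. Under the block, epirubicin's calls of CYP51A1 without LPS (−1.15) and ELOVL7 with LPS (1.04) and the LPS call of ACSS2 with epirubicin (−1.55) did not pass, and the LPS value of HSD17B7 with epirubicin (−1.16) did. A probe set average per gene was not run, since each gene had 1 probe set. With quantile normalization, the epirubicin calls of SCD (−0.99) and ELOVL7 (0.99) with LPS and the LPS calls of IDI1 (−1.15) and SC5D (−1.07) without epirubicin and of ACSS2 with it (−1.44) did not pass, whereas STARD4 with LPS (−1.41, epirubicin) and SCD with epirubicin (−1.01, LPS) did. With the mean-dependent robust prior, SC5D did not pass in the LPS comparison without epirubicin (−1.17) or the epirubicin comparison with LPS (−1.17), whereas ACSS2 (−1.28, LPS without epirubicin), EBP (−1.20, LPS with epirubicin) and STARD4 (−1.42, epirubicin with LPS) did. With the filter on dim probe sets, the LPS call of ACSS2 with epirubicin (−1.55) did not pass. Levels near or below the array median limit the fold changes of ELOVL6, MVK and ELOVL7, of SC5D and HSD17B7 on arrays with both agents, and of DHCR7, ACSS2, LSS and MVD through 1 or more arrays.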
